A study of Mus musculus with 4 samples.

Results

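Levels of 10 immediate early transcription factor genes were followed in the left ventricular free wall of mice with and without the voltage indicator VSFP2.3. The genes were Fos, Fosb, Jun, Junb, Egr1, Egr2, Atf3, Ier2, Nr4a1 and Klf4, chosen by symbol from the 38355 genes of the deposited count table, in which all 10 were found once each. A minimum on low counts was passed by 9 of them, the exception being Fosb. TG 1 was a 35-week male and TG 2 a 19-week female, both carrying VSFP2.3, and WT 1 was a 35-week male and WT 2 a 19-week female, both wild type. All 4 mice had the same parents and received no treatment, and each gave 1 total RNA library. VSFP2.3 reports membrane potential by fluorescence, through energy transfer between a pair of linked fluorophores. The series describes it as targeted to cardiomyocytes and its stated purpose was to determine whether the transgene harms the heart. The sources used here name neither the promoter that drives it nor the strain.

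Immediate early genes are transcribed within minutes of a stimulus without new protein synthesis, since the factors that bind their promoters (serum response factor with its ETS partners, and CREB) are already present and are switched on by kinases. Their messages are short-lived, and many of their products are transcription factors that pass the stimulus on to later genes. In heart muscle they are known to respond to stretch, adrenergic stimulation, ischaemia and the handling of tissue. Fos and Fosb form the AP-1 dimer with Jun or Junb. Atf3 is a stress-induced member of the ATF/CREB family, Egr1 and Egr2 are zinc-finger factors, Nr4a1 is an orphan nuclear receptor, Klf4 is a Krüppel-like zinc-finger factor and Ier2 encodes a nuclear protein.

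The members are compact genes, as is known of this class. Their median span was 5.24 kb, from 1.52 kb for Ier2 to 47.7 kb for Atf3, against a median of 22.6 kb for the genes tested. Jun and Ier2 have a single exon. Promoter windows, from 250 bases before to 50 bases after the transcription start, were matched for 8 of 10 members in a RefSeq table of build GRCm38.p6. Egr1 and Ier2 are named here without a window. Motifs were searched on both strands, only as fixed patterns and only within these windows, so variant or more distant sites would be missed. TGACG, the core of the cyclic AMP response element bound by CREB, was found in 7 of the 8 windows, against 20.8% of all 32851 windows in the table. The full palindrome TGACGTCA, which contains that core, was found in 0 of the 8 (1.79% of all windows), as was the AP-1 motif TGANTCA (7.81%). The GC box GGGCGG was in 6 (35.7%), TATAAA in 2 (13.6%), the ETS core CCGGAA in 1 (14.9%) and the CArG box, the motif of serum response factor, in 1 (1.63%). In Junb, TATAAA spans bases 1 to 6 from the RefSeq start. The downstream end of that window occurs in 0 GENCODE transcripts of Junb, so positions in it are uncertain. A match is a description of these letters and not evidence of binding.

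4 windows are shown, those of Fos and Nr4a1, whose levels spread most among the 9 members tested, that of Egr2, which holds the CArG box, and that of Jun, the most abundant member and the one window with no TGACG. Capitals mark TGACG, seen as its reverse complement where it lies on the other strand, and, in Egr2, the CArG box.
Fos: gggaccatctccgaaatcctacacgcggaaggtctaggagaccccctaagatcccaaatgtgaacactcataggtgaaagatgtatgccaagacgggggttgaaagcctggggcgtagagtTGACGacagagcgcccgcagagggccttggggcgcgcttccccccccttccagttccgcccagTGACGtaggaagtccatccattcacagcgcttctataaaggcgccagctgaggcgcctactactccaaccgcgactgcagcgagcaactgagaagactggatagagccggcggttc
Nr4a1: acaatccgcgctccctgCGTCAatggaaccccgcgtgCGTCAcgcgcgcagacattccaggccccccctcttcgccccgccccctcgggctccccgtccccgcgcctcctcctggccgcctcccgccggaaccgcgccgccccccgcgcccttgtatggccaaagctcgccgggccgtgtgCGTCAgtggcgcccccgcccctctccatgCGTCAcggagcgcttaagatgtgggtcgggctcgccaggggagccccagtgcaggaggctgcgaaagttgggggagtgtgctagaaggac
Egr2: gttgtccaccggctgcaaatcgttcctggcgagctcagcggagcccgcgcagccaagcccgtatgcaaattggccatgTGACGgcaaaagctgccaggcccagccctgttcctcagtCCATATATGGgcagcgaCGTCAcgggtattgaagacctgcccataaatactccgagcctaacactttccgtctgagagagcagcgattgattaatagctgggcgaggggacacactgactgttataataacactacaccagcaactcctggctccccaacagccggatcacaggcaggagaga
Jun: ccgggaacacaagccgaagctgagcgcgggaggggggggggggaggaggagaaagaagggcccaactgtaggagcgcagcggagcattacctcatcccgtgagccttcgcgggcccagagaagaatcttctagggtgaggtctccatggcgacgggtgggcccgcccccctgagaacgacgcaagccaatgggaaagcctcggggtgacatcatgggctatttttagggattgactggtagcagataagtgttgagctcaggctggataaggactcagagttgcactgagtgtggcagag
The Fos window (chr12:85473640-85473939, plus strand) holds TGACG from base -129 and again from base -66, counted from the start, and TATAAA from base -33. The Nr4a1 window (chr15:101266596-101266895, plus strand) holds 4 copies of TGACG, all on the other strand. The Egr2 window (chr10:67537680-67537979, plus strand) is 1 of 5 in the table, taken because its downstream end occurs in the most annotated transcripts, and its CArG box runs from base -133 to -124, between 2 copies of TGACG. The Jun window (chr4:95052173-95052472, minus strand) holds a GC box from base -89 and no exact match to the other motifs searched.

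**Figure D1:**
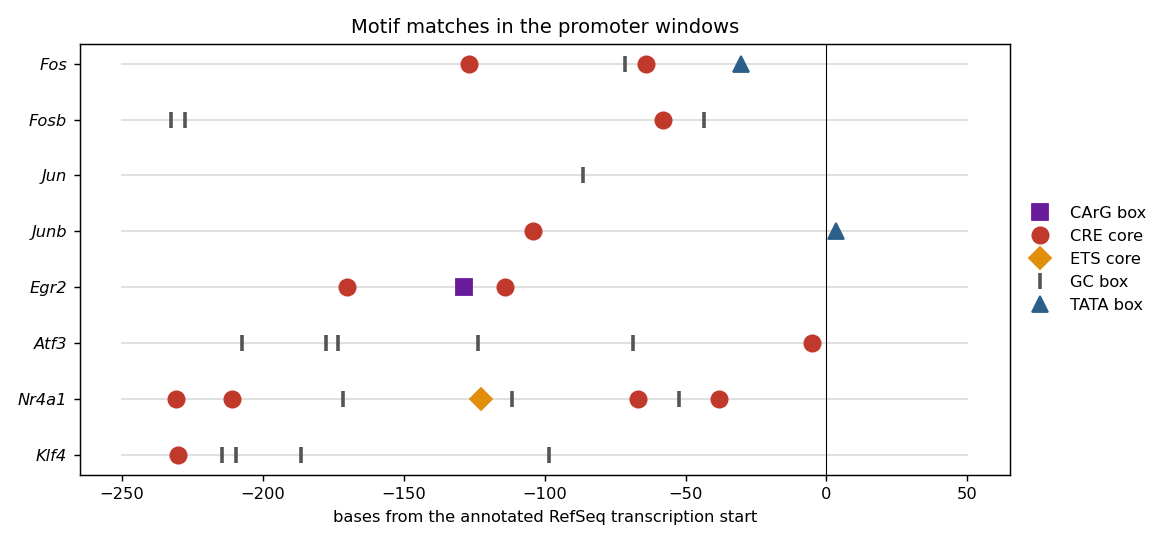
Motif matches in the 8 promoter windows, by distance in bases from the annotated transcription start (horizontal axis), with 1 row per gene. TGACG, the core of the cyclic AMP response element (CRE core), appears in every row but that of Jun, and the CArG box only in that of Egr2.

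The 4 libraries held 14158440 to 16762713 counted reads, and 18334 to 19001 genes had at least 1 count. Levels are given as CPM, the counts scaled to the size of the library, with sizes adjusted by trimmed means, so a count of 0 allows up to 0.182 to 0.213 CPM. WT 2 stood apart in make-up: protein-coding genes took 97.4 and 96.7% of counts in TG 1 and TG 2 and 96.8 and 89.9% in WT 1 and WT 2. Yam1 was at 149 and 174 CPM in TG 1 and TG 2, against 448 and 43847 CPM in WT 1 and WT 2. For Lars2 these values were 40.8 and 20.9 CPM, against 47.4 and 8783 CPM. The atrial marker Myl7 had 0 and 3 counts in TG 1 and TG 2, against 5 and 1111 in WT 1 and WT 2. What the make-up of WT 2 contributes to the members' levels was not tested. Cardiomyocyte markers summed to 78640 and 62441 CPM in TG and to 60252 and 68838 CPM in WT, with none of the 8 at 0 in any library. The transgene's own transcript was not analysed here.

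Fos, the inducible partner in AP-1, had 66 and 133 counts in TG 1 and TG 2, against 160 and 38 in WT 1 and WT 2. In CPM these were 4.69 and 8.83 in TG and 9.73 and 2.43 in WT. The highest and the lowest library were thus both wild type and enclosed both TG values. Exact 95% Poisson intervals, which cover counting error only, ran from 136 to 187 counts in WT 1 and from 26.9 to 52.2 in WT 2. The gap between the wild-type libraries was therefore larger than counting error. Fosb, its close relative, was near the limit of detection, with 6 and 8 counts in TG and 8 and 2 in WT. The interval for TG 1 was 2.20 to 13.1 counts and for WT 2 0.242 to 7.22, so a difference in Fosb was not detectable at this depth.

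Jun and Junb were the most abundant members. Jun, the partner of Fos, was at 82.2 and 52.7 CPM in TG and at 58.7 and 46.2 CPM in WT. TG 1 was highest, both males exceeded both females, and the TG and WT ranges overlapped. Junb, which can take the place of Jun in the dimer, was at 19.2 and 26.8 CPM in TG, against 36.0 and 25.3 CPM in WT. It was the one member lowest in TG 1. Prdx2, transcribed from the other strand, overlaps 7.52% of the exonic length of Junb, and held 3573 and 3743 counts in TG and 4258 and 4027 in WT. The library kit marks strand, but the sources used here do not say whether the counting used it, so the level of Junb is uncertain. Jun overlaps the antisense gene Junos over 7.28% of its exonic length, but Junos held only 6 to 11 counts. Atf3, the stress-induced partner, was at 7.18 and 9.03 CPM in TG and at 15.1 and 3.97 CPM in WT. As for Fos, its WT values enclosed its TG values.

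Egr1 was the steadiest member, at 14.2 and 14.0 CPM in TG and 14.8 and 11.3 CPM in WT, a 1.30-fold range over the 4 libraries. Egr2 was expressed at a low level, with 16 and 28 counts in TG and 29 and 13 in WT. Its exact 95% Poisson intervals of 9.15 to 26.0 counts in TG 1 and 19.4 to 41.7 in WT 1 overlapped. Both Egr genes were lowest in WT 2.

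Nr4a1 had 23.2 and 17.5 CPM in TG and 29.2 and 7.04 CPM in WT, a 4.15-fold range. Its lowest value, in WT 2, rested on 110 counts, and both males exceeded both females. Klf4 had 30.9 and 20.0 CPM in TG and 19.9 and 13.3 CPM in WT. It was the one member whose TG and WT values did not overlap, but TG 2 and WT 1 differed by less than their counting error, at 301 and 328 counts. Ier2 had 6.47 and 9.16 CPM in TG and 9.49 and 6.01 CPM in WT, and the groups overlapped.

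**Figure D2:**
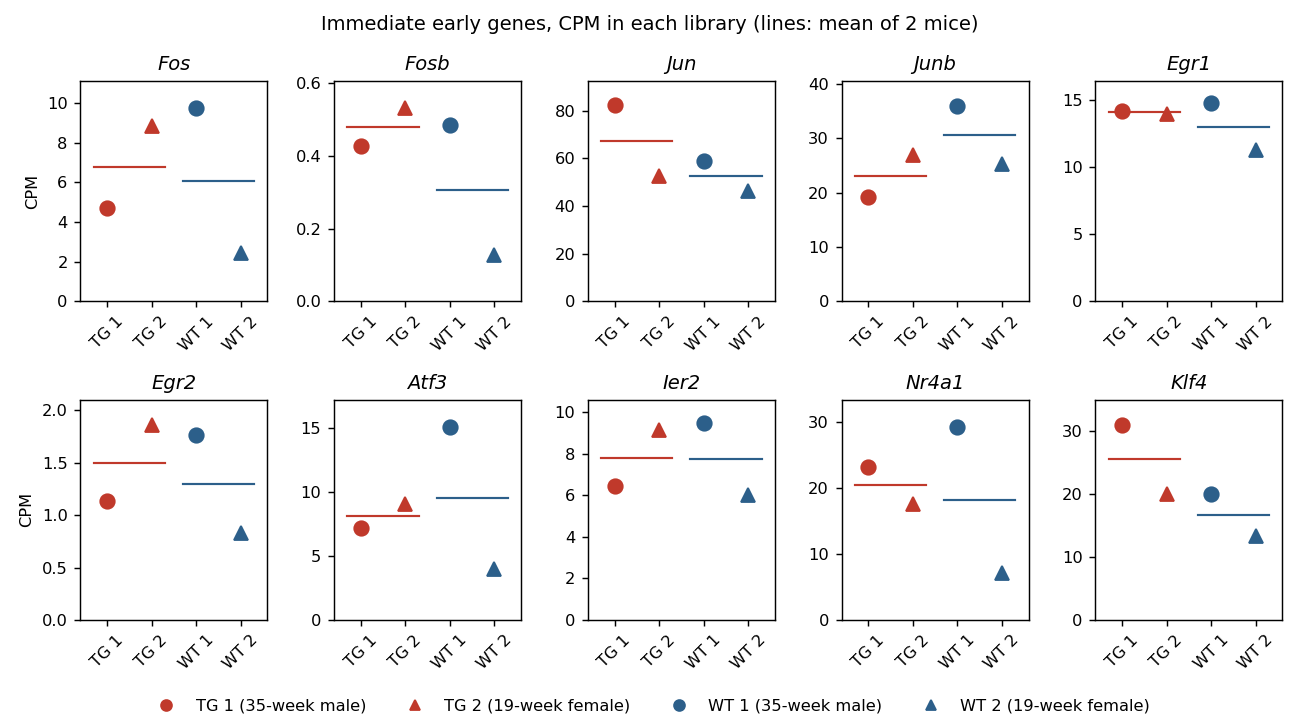
CPM of each member (vertical axis, from 0, on a scale of its own) in TG 1, TG 2, WT 1 and WT 2, with lines at the mean of the 2 mice of a genotype. Circles are 35-week males and triangles 19-week females; WT 2, the rightmost point, is the lowest of the 4 for every member but Junb.

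Between genes, levels were compared as CPM per kb of exonic length, over the 4 libraries (mean ± SD, n = 4). Jun led at 18.8 ± 4.92, ahead of Junb at 11.7 ± 3.02. Next came Klf4 at 6.90 ± 2.39, Nr4a1 at 5.48 ± 2.69, Ier2 at 5.11 ± 1.18, Atf3 at 4.09 ± 2.17, Egr1 at 3.03 ± 0.344 and Fos at 2.73 ± 1.47. The ranges of neighbours in this order overlapped as far as Fos, although Jun exceeded Junb in 4 of 4 libraries. Egr2, at 0.411 ± 0.146, and Fosb, at 0.0630 ± 0.0291, lay below all values of the gene before them. Jun was thus measured at several times the level of Fos per unit length in every library. The members also differed in spread. The SD of log2 CPM over the 4 libraries was larger for Fos than for 95.8% of the tested genes, for Nr4a1 than for 95.7% and for Atf3 than for 94.4%, and for Egr1 than for 40.3%. For low-count genes such as Egr2 and Fosb this spread includes more counting error.

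The comparison that the stated purpose implies is TG against WT. No member differed between the genotypes beyond the spread among the mice, which within a genotype includes the difference in sex and age. Of the 9 members tested, 0 were called by the quasi-likelihood test of edgeR after Benjamini-Hochberg adjustment over all 14189 tested genes, where 0% of all tested genes were called. Their adjusted p-values were all 1.00. At an unadjusted p below 0.05 there were again 0 members by edgeR, and 99 genes in all (0.698%). DESeq2 called 3 genes and limma-voom 0, with no member among them, and neither gave a member an unadjusted p below 0.05. Without WT 1, which leaves 1 library in that group, the log2 fold change, TG over WT, was 1.53 for Nr4a1, 1.48 for Fos and 1.03 for Atf3. Without WT 2 these values were -0.52, -0.52 and -0.89. For Klf4 the range with a library left out was 0.27 to 0.93. The nearest to a difference was Klf4, at 25.4 ± 7.69 CPM in TG and 16.6 ± 4.69 CPM in WT (SD, n = 2 each). Its log2 fold change, TG over WT, was 0.61 ± 0.31 (SE; 95% interval of the edgeR fit -0.18 to 1.41; unadjusted p = 0.104, adjusted p = 1.00 by edgeR). With a replicate block, which compares mice of the same sex and age, its unadjusted p by edgeR was 0.0233. No member was called there either. Both TG values exceeded both WT values for 1 of the 9 tested members, against 10.3% of all tested genes, and both were below for 0 members, against 10.7%. An exact permutation test of 2 against 2 libraries cannot go below a two-sided p of 0.333.

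The widest intervals belonged to the members that the wild-type mice split. Fos averaged 6.76 ± 2.93 CPM in TG and 6.08 ± 5.16 CPM in WT (SD, n = 2 each), a log2 fold change of 0.15 with an interval of -1.67 to 1.98. That of Nr4a1 was 0.17 (-1.53 to 1.86) and that of Atf3 -0.23 (-1.87 to 1.40), so changes of more than 2-fold in either direction lay inside these 3 intervals. Intervals were narrower for Egr1, at 0.11 (-0.41 to 0.63), Jun, at 0.36 (-0.33 to 1.05), Junb, at -0.41 (-1.09 to 0.26), and Ier2, at 0.01 (-0.84 to 0.86). That of Egr2 was 0.21 (-1.23 to 1.64). Over the 9 members tested the median log2 fold change was 0.15, with 7 above 0. Over all tested genes the median was -0.01, with 6743 of 14189 above 0. The members' median was 0.11 without TG 1, -0.19 without TG 2, 0.85 without WT 1 and -0.27 without WT 2, so no direction is read from it. Bulk RNA does not separate fewer expressing cells from less RNA per cell.

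The other difference among the 4 mice is that of the 35-week males from the 19-week females, in which sex and age cannot be told apart. All 9 tested members had a higher fitted value in the males, against 7359 of 14189 tested genes, but 0 were called by the same edgeR test after Benjamini-Hochberg adjustment. It called 0.0282% of all tested genes. At an unadjusted p below 0.05 there were 0 members by edgeR, against 3.62% of all tested genes. Other settings gave Nr4a1 an unadjusted p of 0.0179 (DESeq2), 0.0381 (limma-voom) and 0.0306 (edgeR with no filter). For Jun it was 0.0415 (DESeq2) and 0.0377 (edgeR with no filter). No adjusted p among these was below 0.956. Over all genes, an unadjusted p below 0.05 was given to 364 of 14189 by DESeq2 and to 489 by limma-voom. With no filter edgeR gave one to 632 of 21605. With a library left out, the log2 fold change of Nr4a1, males over females, ran from 0.58 to 1.90. Nr4a1 averaged 26.2 CPM in the males and 12.3 CPM in the females, a log2 fold change, males over females, of 1.09 ± 0.45 (SE; interval -0.09 to 2.27; unadjusted p = 0.0625, adjusted p = 1.00 by edgeR). Jun averaged 70.5 CPM in the males and 49.5 CPM in the females, at 0.51 ± 0.21 (interval -0.03 to 1.05; unadjusted p = 0.0585, adjusted p = 1.00 by edgeR). Klf4 was at 0.61 (-0.19 to 1.41), Atf3 at 0.78 (-0.64 to 2.20) and Fos at 0.36 (-1.46 to 2.19). Both males exceeded both females for Jun, Egr1 and Nr4a1, 3 of the 9 tested members, against 15.5% of all tested genes. The reverse held for 0 members, against 15.9%. Without WT 2, Nr4a1 was at 0.58 on the log2 scale, and Fos, Egr2 and Ier2 had values below 0. Without WT 1, Fos, Junb, Egr2 and Ier2 had values below 0.

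**Figure D3:**
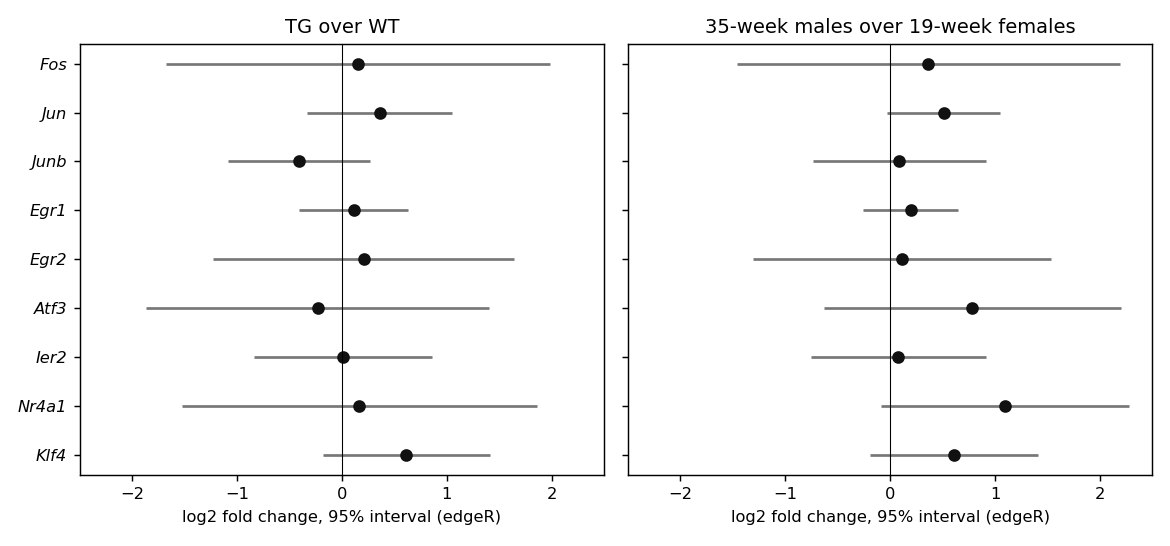
Fitted log2 fold changes (points) of the 9 tested members with their 95% intervals from edgeR (lines), for TG over WT on the left and 35-week males over 19-week females on the right. Every interval includes 0, and those of Fos, Atf3, Nr4a1 and Egr2 are the widest.

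Within the pairs of one sex and age, the members moved apart in opposite directions. In the males, TG 1 was below WT 1 for 8 of 10 members, and in the females TG 2 was above WT 2 for the same 8 and for the other two as well. The combination, lower in TG in the male pair and higher in TG in the female pair, was found for Fos, Junb, Egr1, Egr2, Atf3, Ier2 and Nr4a1, 7 of the 9 tested members, against 31.9% of all tested genes, and for Fosb at its few counts. The opposite combination was found for 0 members, against 32.8%. Fos had log2 TG to WT ratios of -1.03 (males) and 1.81 (females). For Atf3 these were -1.06 and 1.16, for Egr2 -0.58 and 1.05, for Nr4a1 -0.33 and 1.30 and for Ier2 -0.54 and 0.60. TG 2 exceeded WT 2 by over 2-fold for 4 of the 9 tested members (Fos, Egr2, Atf3 and Nr4a1), against 5.33% of all tested genes. Fosb, with 8 counts in TG 2 and 2 in WT 2, is left out, since it was not tested. Its intervals of 3.45 to 15.8 and 0.242 to 7.22 counts overlapped. Those of Egr2, 18.6 to 40.5 counts in TG 2 and 6.92 to 22.2 in WT 2, overlapped as well. TG 1 was below WT 1 by over 2-fold for Fos and Atf3, against 6.07%. Jun and Klf4 were higher in TG in both pairs, against 16.7% of all tested genes, with log2 ratios of 0.48 and 0.19 for Jun and of 0.63 and 0.58 for Klf4 in the male and the female pair. Each pair holds 1 library per genotype, so these ratios have no replicate and no test.

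**Figure D4:**
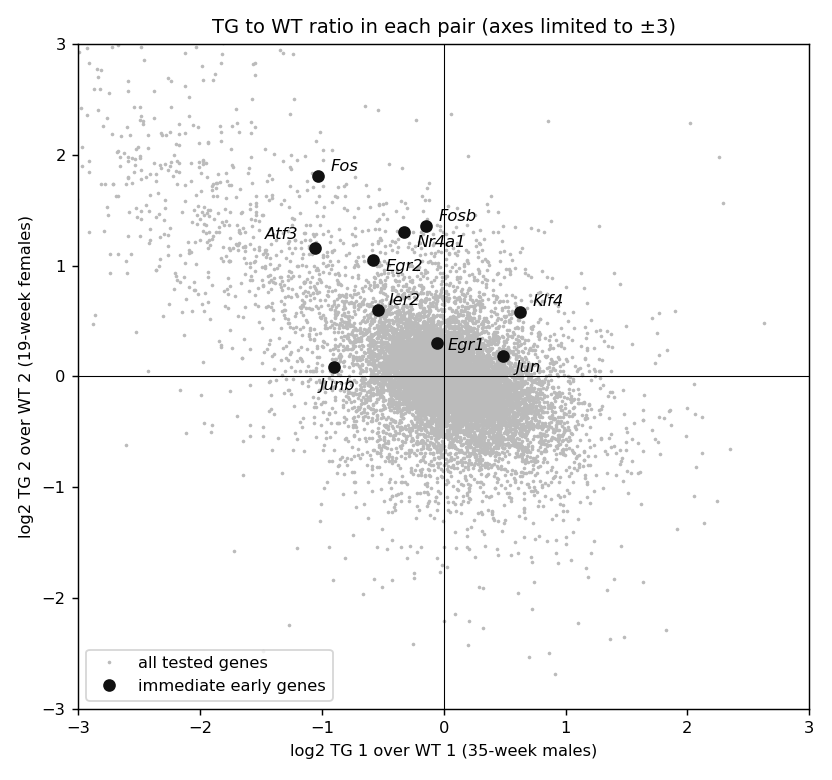
Log2 TG to WT ratio of every tested gene and of the 10 members (black) in the 35-week male pair (horizontal axis) and the 19-week female pair (vertical axis); 171 of 14189 tested genes lie beyond the axes. The members lie above 0 in the female pair, and 8 of 10 lie below 0 in the male pair.

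One library accounted for most of the low values. WT 2 was the lowest of the 4 libraries for 8 of the 9 tested members, against 25.6% of all tested genes, and for Fosb. WT 1 was the highest for 6 of the 9, against 28.1%. Summed over the 10 members, the level was 190 and 160 CPM in TG and 195 and 117 CPM in WT. The sums of the other 3 libraries thus lay closer to one another than to WT 2.

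Leukocyte markers also differed between the libraries. Their order was not that of the members' sum, of which Jun made up the largest part in every library. The 8 macrophage markers in the table summed to 231 and 470 CPM in TG and to 623 and 224 CPM in WT, nearly as low in TG 1 as in WT 2. All 8 were higher in WT 1 than in TG 1 and all 8 higher in TG 2 than in WT 2. Of the 9 tested members, 7 had these signs (Fos, Junb, Egr1, Egr2, Atf3, Ier2 and Nr4a1), against 31.9% of all tested genes. From highest to lowest, the macrophage sums ran WT 1, TG 2, TG 1, WT 2. Fos, Atf3 and Ier2 had this order and the other members did not. The 8 lymphocyte markers summed to 1.14 and 25.5 CPM in TG and to 24.3 and 2.49 CPM in WT, lowest in TG 1 and highest in TG 2. Markers of smooth muscle and pericytes summed to 2611 and 2299 CPM in TG and to 2284 and 1572 CPM in WT. The sum was carried by Rgs5 and Abcc9, the only 2 of these 8 markers that were lowest in WT 2. Cnn1, Myh11, Tagln and Pdgfrb were highest in WT 2, and Acta2 was lowest in TG 1. Erythroid markers summed to 235 and 142 CPM in TG and to 718 and 183 CPM in WT. Atrial markers, most of their sum from Nppa, reached 1585 and 4254 CPM in TG and 3728 and 1243 CPM in WT. Nppa was lowest in WT 2 and Tbx5 in WT 1. In contrast, Myl4, Myl7 and Sln were by far highest in WT 2, at 75.6, 71.1 and 19.1 CPM. In no other library did they exceed 1.16, 0.304 and 0.0664 CPM. Endothelial markers (1215 and 1112 CPM in TG, 1056 and 1376 CPM in WT) and fibroblast markers (1858 and 1848 CPM in TG, 1786 and 1938 CPM in WT) varied less. Neutrophil markers summed to 1.21 and 3.85 CPM in TG and to 4.74 and 1.34 CPM in WT, lowest in TG 1, with Mpo and Elane at 0 counts in every library and Ly6g at 0 in all but WT 1. The part of these cells in the members' levels was not tested.

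None of the closest relatives of the members was called between TG and WT. Of 14 listed AP-1 relatives 12 were tested, where edgeR called 0% of all tested genes. Their median log2 fold change was 0.04. Jund, the steadily expressed Jun gene, was at 50.3 and 76.1 CPM in TG and at 82.9 and 78.9 CPM in WT, so both TG values lay below both WT values (log2 fold change -0.36 ± 0.23; -0.68 without TG 2 and -0.086 without TG 1). Fosl1, a further Fos gene, did not pass the minimum on counts. Of 12 relatives in the EGR, NR4A and KLF families 9 were tested and 0 called, with a median of 0.17. Klf9, a glucocorticoid-responsive Krüppel-like factor, was at 101 and 96.2 CPM in TG and at 91.9 and 82.8 CPM in WT (0.17 ± 0.14; 0.10 without WT 2). Klf10, induced by transforming growth factor beta, was at 14.0 and 25.3 CPM in TG and at 20.6 and 32.4 CPM in WT (-0.43 ± 0.37; -0.92 without TG 2 and -0.060 without WT 2). Among the relatives lower in TG in the male pair and higher in the female pair were 8 of the 12 AP-1 genes (pair medians -0.36 and 0.27) and 4 of the 9 others (-0.12 and 0.80), against 31.9% of all tested genes.

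Other immediate early genes were also not called. Among 18 further nuclear regulators 0 were called and 9 had values above 0, with a median of -0.01. Over all tested genes, 6743 of 14189 were above 0. Per1, a clock gene also induced through CREB, was at 40.8 and 16.6 CPM in TG and at 14.9 and 9.28 CPM in WT (1.24 ± 0.49; 0.46 without TG 1 and 1.75 without TG 2). Both TG values lay above both WT values, by far the most in TG 1. Cebpd, an inflammation-responsive factor, was at 10.6 and 17.9 CPM in TG and at 12.6 and 7.16 CPM in WT (0.52 ± 0.39; 0.097 without TG 2 and 0.99 without WT 1). Of 25 feedback phosphatases, signalling inhibitors and RNA decay factors, which end the immediate early response, 0 were called and 17 had values above 0, with a median of 0.14. Spry2 and Spry1, inhibitors of growth factor signalling, had the smallest p. Spry2 was at 22.1 and 23.1 CPM in TG and at 15.0 and 17.9 CPM in WT (0.46 ± 0.17; unadjusted p = 0.0397, adjusted p = 1.00 by edgeR). Spry1 was at 27.4 and 30.3 CPM in TG and at 23.3 and 18.7 CPM in WT (0.45 ± 0.17; unadjusted p = 0.0489, adjusted p = 1.00 by edgeR). Of 16 secreted immediate early products 14 were tested and 0 called, with a median of 0.07. Thbs1, a matricellular glycoprotein, was at 14.9 and 18.2 CPM in TG and at 23.2 and 29.2 CPM in WT (-0.66 ± 0.20; unadjusted p = 0.0209, adjusted p = 1.00 by edgeR). Ptgs2, the inducible cyclooxygenase, was at 2.28 and 4.25 CPM in TG and at 2.43 and 1.79 CPM in WT (0.63 ± 0.45; 0.11 without TG 2 and 1.01 without TG 1). In the pairs, all 3 lists had medians of the members' signs. For the further nuclear regulators these were -0.30 (males) and 0.29 (females), and 12 of 18 were lower in TG in the male pair and higher in the female pair, against 31.9% of all tested genes. For the feedback and decay factors they were -0.19 and 0.30, with 14 of 25 in that combination. For the secreted products they were -0.20 and 0.44, with 10 of 14.

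The kinases and promoter-binding factors upstream of the members varied less than the members themselves. Over 24 such genes, all tested, the median SD of log2 CPM among the 4 libraries was 0.16, against 0.49 for the 9 members and 0.21 for all tested genes. Levels were not matched, and the members include low-count genes such as Egr2, whose spread holds more counting error. None of the 24 was called by edgeR and the median log2 fold change, TG over WT, was 0.06. Atf1, a relative of CREB, was at 24.3 and 19.3 CPM in TG and at 19.2 and 13.3 CPM in WT (0.42 ± 0.25; 0.19 without WT 2 and 0.71 without WT 1). Mkl2, a coactivator of serum response factor, was at 80.6 and 72.8 CPM in TG and at 68.2 and 62.8 CPM in WT (0.23 ± 0.14). Their pair medians were 0.14 in the males and -0.10 in the females, and those of the 9 members were -0.54 and 0.60. Of the 24, 2 were lower in TG in the male pair and higher in the female pair, against 31.9% of all tested genes.

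Of the heat shock and glucocorticoid-responsive genes, which also respond to stress, none was called by edgeR. Values were above 0 for 10 of 12 heat shock genes, with a median of 0.14, and for 10 of 11 glucocorticoid-responsive genes, with a median of 0.32 (-0.73 without TG 2). Over all tested genes, 6743 of 14189 had values above 0. Dnajb1, a co-chaperone, was at 39.7 and 16.7 CPM in TG and at 17.8 and 9.53 CPM in WT (1.04 ± 0.51; 0.29 without TG 1 and 1.56 without WT 1). Hspa1b, the inducible HSP70, was at 18.0 and 1.66 CPM in TG and at 2.80 and 1.15 CPM in WT (2.3 ± 1.15). Reads of Hspa1b cannot be separated with certainty from its near-identical copy Hspa1a, and without TG 1 the log2 fold change was -0.25. TG 1, the highest library for both, was also the highest for Jun and Klf4 but not for Fos. Ddit4, an inhibitor of mTOR signalling induced by glucocorticoids, was at 20.0 and 31.3 CPM in TG and at 11.4 and 16.2 CPM in WT (0.90 ± 0.30; unadjusted p = 0.0316, adjusted p = 1.00 by edgeR; 0.54 without TG 2). Tsc22d3, a glucocorticoid-induced leucine zipper gene, was at 122 and 138 CPM in TG and at 112 and 70.0 CPM in WT (0.52 ± 0.26; 0.22 without WT 2 and 0.89 without WT 1). The median log2 TG to WT ratio of the glucocorticoid list was -0.12 for the males and 0.70 for the females. The members' combination, lower in TG in the male pair and higher in the female pair, was found for 7 of these 11 genes, against 31.9% of all tested genes. The median of the heat shock list was 0.47 for the males and 0.14 for the females, and 4 of its 12 genes had that combination.

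**Figure D5:**
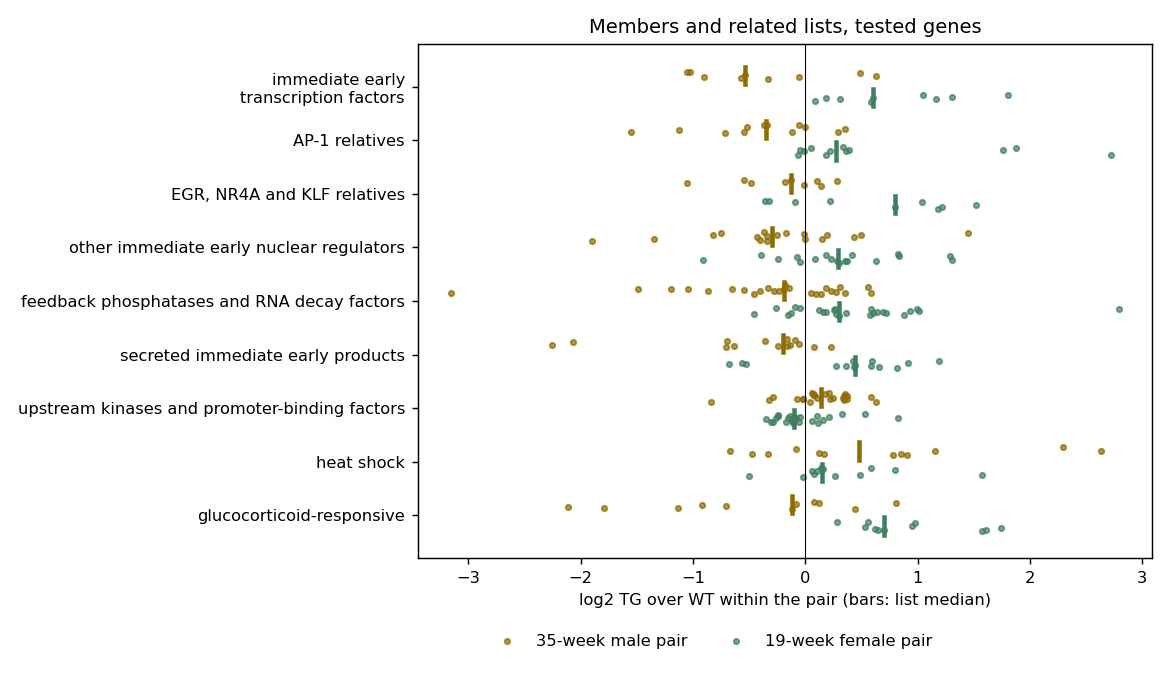
Log2 TG to WT ratio of each tested gene (points) in the 35-week male pair (upper strip of each row) and the 19-week female pair (lower strip), with bars at the list median. The median of the immediate early transcription factors is -0.54 for the males and 0.60 for the females, and that of the upstream kinases and promoter-binding factors is 0.14 and -0.10; the other immediate early lists, the relatives and the glucocorticoid-responsive list share the signs of the members.

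The mean profile of the 9 tested members, as centred log2 CPM, was 0.04 and 0.17 in TG 1 and TG 2 and 0.41 and -0.62 in WT 1 and WT 2. The genes nearest to it over the 4 libraries were Iffo2, Arhgap25, Ncoa7, Zfp39, Rgag4 and Sp110, with root-mean-square differences of 0.04 to 0.06 on the log2 scale, against a median of 0.43 for all tested genes. Iffo2 was at 9.67 and 10.3 CPM in TG and at 11.8 and 6.14 CPM in WT. These 6 were the nearest by choice. The members lay 0.19 (Egr2) to 0.43 (Fos) from their own mean, which they set. Among all tested genes 5% lay within 0.230 of it, as did Egr2 and Ier2 (0.208) but not the other 7 members. A likeness over 4 libraries is a description only.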

How the data were processed

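Per the labels' protocols, total RNA was extracted with a NucleoSpin kit (RIN above 7), made into libraries with a stranded TruSeq kit and sequenced on a HiSeq2000. The authors deposited a table of raw counts for each gene, and a normalized signal that equalled those counts divided by 1 factor per library (0.917 to 1.08). The submitters' processing notes name build mm10 and the tools STAR 2.3.0, HTSeq 0.6.1, DESeq, CASAVA 1.8.2 and FastQC 0.10.0. Annotation release and strand setting: not given in the sources used here.

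Tests used the raw counts, in edgeR 4.0.16 under R 4.3.3 (filterByExpr, minimum count 10; TMM scaling; quasi-likelihood test; Benjamini-Hochberg over 14189 genes; threshold 0.05), for TG against WT and for males against females. Alternatives were DESeq2 1.42.0, voom from limma 3.58.1, other scalings, no filter, a replicate block and each library left out. Tests were checked on simulated counts, with the same dispersion for every gene and larger changes than those fitted for the members. That check does not show whether changes of the members' size would be found. SE and 95% intervals were derived from the fold change, F statistic and degrees of freedom of the edgeR test. A prior count of 2 entered the ratios within pairs. The labels do not say whether the mice were handled on separate days, and p-values measure only the spread among these 4 mice. Positions and exonic lengths came from GENCODE vM21 (same assembly), matched by Ensembl identifier for 99.2% of tested genes.

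The members and lists were chosen with earlier results of these data known. Named were all members, the 2 genes of smallest p per list and the 6 nearest profiles, leaving out predicted genes. 1 gene that this rule chose is not reported here. Sex-linked genes fitted the labelled sex of all 4 mice.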

Additional observations from a re-analysis of the deposited data

Results flagged for a closer look

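For 8 members the TG to WT ratio had one sign in the 35-week male pair and the opposite sign in the 19-week female pair. The difference was not tested, since each pair holds 1 library per genotype. The log2 ratios in the male and the female pair were -1.03 and 1.81 for Fos, -0.15 and 1.36 for Fosb, -0.90 and 0.086 for Junb and -0.054 and 0.30 for Egr1. They were -0.58 and 1.05 for Egr2, -1.06 and 1.16 for Atf3, -0.54 and 0.60 for Ier2 and -0.33 and 1.30 for Nr4a1. A sign with no size limit singles out many genes: among all tested genes, 31.9% had this combination and 32.8% the opposite one. The values of Egr1, Junb and Fosb include a ratio of at most 0.15 in size in one of the pairs.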

How the results depend on the processing

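Between TG and WT, no member was called under any alternative run. The count over all genes was 0 in the main test and under limma-voom, both other scalings, no filter and the replicate block (61 genes at an unadjusted p below 0.05, with Klf4 among them at 0.0233; log2 fold change 0.61 ± 0.16). It was 3 under DESeq2 and 0 to 8 with a library left out, 8 without WT 1. For males against females the count was 4, and it was 34 under DESeq2, 7 with no filter, 0 with a genotype term (Klf4 at an unadjusted p of 0.0237) and 0 to 9 with a library left out; no member was among them.

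The sign of Atf3, TG over WT, turned under limma-voom (0.047) and with the replicate block (0.037). With a library left out, the log2 fold change, TG over WT, ran from -0.52 to 1.48 for Fos, -0.063 to 0.32 for Egr1, -0.23 to 0.85 for Egr2, -0.89 to 1.03 for Atf3, -0.27 to 0.38 for Ier2 and -0.52 to 1.53 for Nr4a1. The signs of Jun, Junb and Klf4 held, with ranges of 0.01 to 0.65, -0.67 to -0.13 and 0.27 to 0.93. Among other named genes it ran from -0.25 to 3.18 for Hspa1b, -0.24 to 0.70 for Iffo2, -0.22 to 0.71 for Arhgap25, -0.28 to 0.68 for Ncoa7, -0.24 to 0.85 for Zfp39, -0.22 to 0.85 for Rgag4 and -0.34 to 0.64 for Sp110. Males over females, it ran from -0.29 to 1.57 for Fos, -0.44 to 0.46 for Junb, -0.36 to 0.80 for Egr2 and -0.23 to 0.41 for Ier2. The cause was not tested.

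Same-numbered libraries shared sex and age but did not deviate together (r = -0.449 over 14189 genes between TG 1 and WT 1, as deviations from their genotype means). With the pairing crossed, chosen after seeing the data, 0 genes were called and 303 had an unadjusted p below 0.05, with Junb among them at 0.0445. Depth limits Fosb, with 2 to 8 counts, and Egr2, with 13 to 29.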

Other observations

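Without a minimum on counts, Fosb could be fitted: its log2 fold change was 0.62 ± 0.81 (SE) for TG over WT and 0.48 ± 0.81 for males over females. The adjusted p-values by edgeR were 0.998 and 0.994. Nr4a3, the third gene of the NR4A family, had 116 and 547 counts in TG, against 191 and 250 in WT, so its highest library was TG 2, whereas that of Nr4a1 was WT 1. Nr4a2 had 11 and 25 counts in TG, against 29 and 10 in WT. Both were singled out after their values were seen.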
